A study of Homo sapiens with 2 samples.

Results

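The genes described here are 7 regulators of the pluripotent state: POU5F1 (also called OCT4), SOX2, NANOG, SALL4, LIN28A, PRDM14 and ZFP42 (also called REX1). They were chosen by symbol, each had 1 row in both count tables, and they are 7 of the 36601 genes counted. Their transcripts were counted cell by cell in H9, an established human embryonic stem cell line kept in RSeT medium, which is sold for naive culture. All cells received 10 nM DZNep, an inhibitor of methyltransferase activity, and 5 nM TSA, a histone deacetylase inhibitor. All also received 25 nM of a dye-labelled oligonucleotide. In the SO-L1 library the oligonucleotide was the sense control, and in the ASO-L1 library it was antisense to LINE1, a family of retrotransposons. Both groups also had 0.7 uM trans-ISRIB, 5 uM emricasan and 10 uM Y-27632, taken away after 24 h, and dye-positive cells were sorted at 48 h. Each group is 1 library of 1 cell line, so differences are described without p-values, and none could be checked in a second library.

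POU5F1, SOX2 and NANOG encode transcription factors that bind many of the same enhancers and promoters, their own included, and hold embryonic stem cells in a state from which all germ layers can form. POU5F1 is a POU-domain protein and SOX2 an HMG-box protein, and the pair can bind a composite DNA element side by side. NANOG is a homeodomain protein, SALL4 is a zinc-finger protein of stem and germ cells, and PRDM14 is a PR-domain protein that restrains differentiation signals. ZFP42 is a zinc-finger protein used as a marker of the undifferentiated and naive states. LIN28A is an RNA-binding protein that blocks maturation of the let-7 microRNAs.

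In the GENCODE 29 annotation of GRCh38, the build of the files, all 7 are protein-coding genes. POU5F1 lies on chromosome 6 from 31164337 to 31180731 on the minus strand, and SOX2 on chromosome 3 from 181711924 to 181714436 on the plus strand. NANOG lies on chromosome 12 from 7787794 to 7799141, LIN28A on chromosome 1 from 26410778 to 26429722 and ZFP42 on chromosome 4 from 187995771 to 188005050, all on the plus strand. SALL4 lies on chromosome 20 from 51782331 to 51802520 on the minus strand. POU5F1 shares exon sequence with TCF19 on the opposite strand, and the strand setting of the counting is not known here. TCF19 had 2822 UMIs in the control library and 3143 in ASO-L1, against 259121 and 432678 for POU5F1. SOX2 lies inside SOX2-OT on the same strand without sharing exons, and SOX2-OT had 3369 and 6149 UMIs. The close copy POU5F1B had 0.354% of the POU5F1 UMIs in the control library and 0.517% in ASO-L1, and NANOGP8 had 0.895% and 1.07% of those of NANOG. How many reads matched both a gene and its copy was not measured, so these shares do not bound the error of POU5F1 and NANOG.

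The RefSeq promoter table (GRCh38.p14) holds 3 of the 7 genes, and the 250 bases before their start sites are shown because these factors are known to bind near the start sites of members. All are read on the plus strand, 5′ to 3′. Capitals mark an exact match to the octamer core TTTGCAT or to the SOX motif CATTGT, searched on both strands.
NANOG, chr12:7789152-7789401: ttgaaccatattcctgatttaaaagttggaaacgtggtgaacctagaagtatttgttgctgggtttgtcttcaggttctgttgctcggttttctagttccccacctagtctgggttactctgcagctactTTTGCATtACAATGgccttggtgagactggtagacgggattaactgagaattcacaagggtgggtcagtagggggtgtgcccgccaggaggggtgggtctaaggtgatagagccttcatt
SOX2, chr3:181711675-181711924: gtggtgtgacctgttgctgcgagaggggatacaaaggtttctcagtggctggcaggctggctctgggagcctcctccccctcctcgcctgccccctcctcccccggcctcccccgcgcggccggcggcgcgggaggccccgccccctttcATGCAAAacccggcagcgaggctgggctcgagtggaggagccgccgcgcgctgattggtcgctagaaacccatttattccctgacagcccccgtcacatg
ZFP42, chr4:187995521-187995770: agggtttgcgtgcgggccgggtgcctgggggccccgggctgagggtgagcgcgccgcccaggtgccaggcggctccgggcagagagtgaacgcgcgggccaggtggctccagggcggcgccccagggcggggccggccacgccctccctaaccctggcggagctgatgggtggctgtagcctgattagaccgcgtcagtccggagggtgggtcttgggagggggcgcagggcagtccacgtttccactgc
The NANOG window, from 7789152 to 7789401, lies inside the GENCODE 29 span of NANOG given above, which begins at 7787794. It therefore precedes the RefSeq start site used here and not the start of that span. The window holds a composite in which the octamer core and the SOX motif on the other strand are 1 base apart. The composite runs from -120 to -107 relative to the RefSeq start site. That composite occurs in 2 of 35116 windows of the same length (0.00570%), and the NANOG window is 1 of these 2. The share counts exact matches to this string only. The SOX2 window holds the octamer core on the other strand from -100 to -94, a match found in 3.94% of windows. The SOX motif alone occurs in 9.29% of windows, the full octamer ATGCAAAT, which overlaps the core, in 1.63%, and CTTTGTT in 4.5%. The ZFP42 window holds none of these letters. A match describes the sequence and is not a measured binding site.

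Cells were kept with 1000 genes or more and a mitochondrial share of UMIs below 20%, which left 6553 of 13070 barcodes in SO-L1 and 9084 of 11659 in ASO-L1. Their median number of non-mitochondrial UMIs was 39100 in SO-L1 and 50482 in ASO-L1. Cells below 2% mitochondrial UMIs (the low-mitochondrial class) numbered 1857 for SO-L1 (28.3%) and 2531 for ASO-L1 (27.9%). The other 4696 and 6553 cells had a median mitochondrial share of 8.91% and 7.31%. The libraries shared 6105 barcode sequences, and 274 were kept in both, which is 4.18% of kept SO-L1 and 3.02% of kept ASO-L1 barcodes. Those 274 held a median of 1701 non-mitochondrial UMIs in the control library and 120394 in ASO-L1. Of the 6045 SO-L1 barcodes under 1000 genes, 5032 carried the barcode of a kept ASO-L1 cell, and of the 2045 in ASO-L1, 788 carried that of a kept SO-L1 cell. Leaving out the 274 was tried between libraries over all cells, between classes within a library, and between cells with and without TPRX1, CER1 or PAX6 UMIs. It moved no ratio of these 7 genes there by more than 1.03-fold. Groups by number of TPRX1, CER1 or PAX6 UMIs, and such groups within a class, were not redone without them. Leaving out all 6105, which left 3776 ASO-L1 cells, turned the direction of 4 library ratios: POU5F1 was then at 1.01, PRDM14 at 1.03, NANOG at 1.06 and LIN28A at 1.05, while SOX2 was at 0.753 and ZFP42 at 1.36. POU5F1, SOX2 and LIN28A were found in 89.8% or more of kept cells of either library, as in pluripotent cells. The naive marker DPPA5 was at 245.9 and 273.5 UMIs per 1000000 in SO-L1 and ASO-L1, but KLF17, another naive marker, at only 0.615 and 2.12. CD24, a primed marker, was at 559.3 and 476. The primed genes ZIC2 and DUSP6 were at only 0.327 and 0.205 in SO-L1 and at 1.55 and 0.781 in ASO-L1. The fibroblast genes LUM, DCN and COL3A1 had 0, 2 and 11 UMIs in SO-L1 and 3, 6 and 16 in ASO-L1. Other genes of the fibroblast list were not rare. In SO-L1 and ASO-L1, TAGLN had 2992 and 32858 UMIs, THY1 9622 and 25667, COL1A2 6087 and 9410 and COL1A1 2285 and 6861.

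Levels are UMIs per 1000000 non-mitochondrial UMIs (CPM), summed over cells, and are compared within a gene only. A gene was called different when its ratio was at least 1.5-fold, the exact conditional binomial 95% interval left out 1 and both groups together held at least 100 UMIs. Intervals cover counting error only, and UMIs of 1 cell are not independent. In bulk sums, fewer cells carrying a transcript and less of it per cell cannot be told apart, so the values per cell follow after the sums.

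Over all kept cells, none of the 7 genes was called different between ASO-L1 and SO-L1, where 16% of 22850 genes were called higher and 18% lower. The largest departures were SOX2 and ZFP42. SOX2 stood at 337 CPM in SO-L1 and 237 in ASO-L1, a ratio of 0.702 (95% interval 0.696 to 0.708). ZFP42 stood at 67.8 and 95.9, a ratio of 1.41 (1.39 to 1.44). As background, SOX2 is shared with neural progenitors. The ratio was 0.901 for POU5F1, 0.970 for NANOG, 0.880 for SALL4, 0.965 for LIN28A and 0.915 for PRDM14. With each cell thinned to 8000 UMIs, NANOG was at 1.03 and LIN28A at 1.0, so their direction depends on the setting, as does that of POU5F1 and PRDM14 with shared barcodes left out. Of the 25 other genes of the general pluripotency network that were listed, 3 were called higher and 3 lower. The highest were MYC, a growth regulator, at 3.82 and the forkhead factor gene FOXD3 at 3.69. The lowest were GDF3, a Nodal-related ligand, at 0.604 and the telomere-binding factor gene TERF1 at 0.632. Of 20 naive genes 12 were called higher and 3 lower, and of 16 primed genes 7 and 1.

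In the low-mitochondrial cells the libraries stood further apart. There 4 of the 7 genes were called lower in ASO-L1 and 1 higher, where 24.9% of 19163 genes were called lower and 22.9% higher. SOX2 stood at 259 CPM in SO-L1 and 116 in ASO-L1, a ratio of 0.447 (0.437 to 0.458). PRDM14 stood at 71.5 and 42.8, a ratio of 0.599 (0.575 to 0.624). LIN28A stood at 172 and 107, a ratio of 0.623 (0.606 to 0.639). These are a core factor, a guard against differentiation signals and the let-7 inhibitor. POU5F1, the POU-domain factor, stood at 956 and 609, a ratio of 0.638 (0.631 to 0.645). ZFP42 was the gene called higher, at 70.8 and 120, a ratio of 1.69 (1.63 to 1.75). NANOG, at 0.733, and SALL4, at 0.760, lay inside the limits. Without the 274 shared barcodes the same numbers of genes were called, 4 lower and 1 higher, and the SOX2 ratio was 0.451. Among low-mitochondrial cells without a UMI of TPRX1, CER1 or PAX6, 2 genes were called lower and none higher, where 14.4% of 17153 genes were called lower and 18.9% higher: SOX2 at 0.610 and PRDM14 at 0.659. ZFP42 was at 1.47 there and POU5F1 at 0.748.

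In cells at 2% mitochondrial UMIs or more, none of the 7 was called, where 12.2% of 21479 genes were called higher and 15.7% lower. POU5F1 stood at 1041 CPM in SO-L1 and 1020 in ASO-L1, a ratio of 0.979. PRDM14 was at 0.984, NANOG at 1.03 and LIN28A at 1.05. SOX2 kept a ratio of 0.763 (0.756 to 0.771) and ZFP42 one of 1.32 (1.29 to 1.35). The direction of SOX2 and of ZFP42 was therefore shared by both classes, while POU5F1 and PRDM14 differed between libraries mainly in the low-mitochondrial class. Whether the library ratio differs between classes was not tested, since each class comes from the same pair of libraries.

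**Figure D1:**
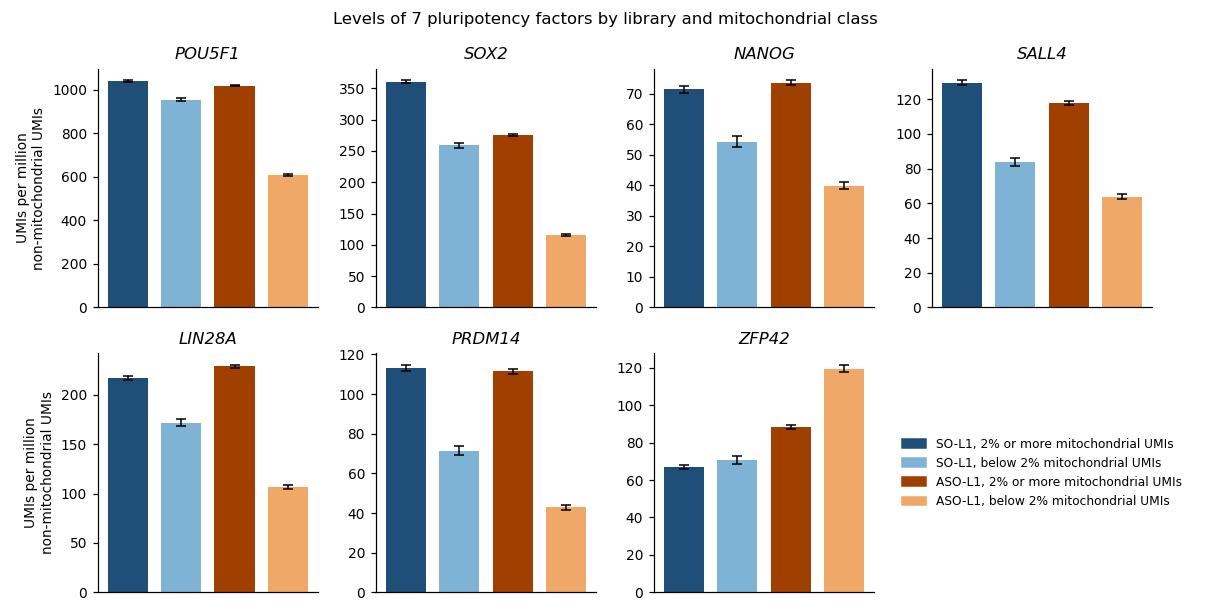
Level of each of the 7 genes (CPM, own linear axis from 0) in the 4 sets of cells made by library and mitochondrial class; bars are sums over cells and whiskers are exact 95% Poisson intervals for counting error. The low-mitochondrial ASO-L1 bar is the lowest for POU5F1, SOX2, NANOG, SALL4, LIN28A and PRDM14 and the highest for ZFP42.

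Within a library, the low-mitochondrial class was compared with the remaining cells. In ASO-L1, 6 of the 7 genes were called lower in low-mitochondrial cells and none higher, where 12.8% of 21455 genes were called lower and 27.1% higher. PRDM14 was at 42.8 CPM against 111, a ratio of 0.384 (0.373 to 0.396). SOX2 was at 116 against 275, a ratio of 0.421 (0.413 to 0.429). LIN28A was at 107 against 229, a ratio of 0.468 (0.459 to 0.477). So the guard against differentiation signals, the HMG-box factor and the let-7 inhibitor were each at under 0.5 of the level of other cells. NANOG had a ratio of 0.540, SALL4 of 0.542 and POU5F1 of 0.5975. ZFP42 went the other way without being called, at 120 against 88.3, a ratio of 1.35 (1.33 to 1.38). Without cells holding a TPRX1, CER1 or PAX6 UMI, 5 of the 7 were called lower, where 6.48% of 19245 genes were called lower and 26.8% higher. PRDM14 was then at 0.439, SOX2 at 0.546 and POU5F1 at 0.687, just inside the limit.

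In SO-L1 the same comparison called 2 of the 7 lower and none higher, where 6.32% of 19452 genes were called lower and 19.9% higher. PRDM14 was at 71.5 CPM against 113, a ratio of 0.632 (0.611 to 0.653). SALL4 was at 83.9 against 129, a ratio of 0.648 (0.629 to 0.669). Both sit just past the limit of 1.5-fold, and neither was called when mitochondrial UMIs stayed in the total (0.694 and 0.712). SOX2, at 0.719, NANOG, at 0.760, and LIN28A, at 0.792, were lower by less. POU5F1 was at 0.918 (0.909 to 0.927), and at 1.01 with mitochondrial UMIs in the total, so its direction in SO-L1 depends on that choice. ZFP42 was at 1.06. A member thus differed less between the classes of SO-L1 than between those of ASO-L1 in 7 of 7 cases, an observation that was not tested.

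Other pluripotency genes were read from lists, described here by counts and medians. Of the 25 general network genes, 0 were called higher and 15 lower in low-mitochondrial ASO-L1 cells, with a median log2 ratio of -0.77 against 0.14 over all genes. FOXD3, at 0.214, and the DNA methyltransferase gene DNMT3B, at 0.257, were the lowest. In SO-L1, 0 were called higher and 9 lower, with a median of -0.41 against 0.09, and FOXD3, at 0.381, and MYC, at 0.420, were the lowest. Of 18 genes of the let-7 and LIN28 pathway, 0 were higher and 5 lower in ASO-L1, with a median log2 ratio of -0.40 against 0.14 over all genes. In SO-L1 0 were higher and 4 lower, with a median of -0.15 against 0.09. Over all genes 27.1% were called higher and 12.8% lower in ASO-L1, and 19.9% and 6.32% in SO-L1. HMGA2, a chromatin protein gene that let-7 represses, was at 0.282 in ASO-L1 and at 0.425 in SO-L1. Naive genes behaved differently: 12 of 20 were called higher and 4 lower in ASO-L1, and 11 and 1 in SO-L1. The naive alkaline phosphatase genes ALPP and ALPG had the highest ratios, 7.12 and 6.96 in ASO-L1. The naive genes with the lowest ratios there were the nuclear receptor gene NR5A2, at 0.338, and DPPA5, at 0.419. Of 16 primed genes, 2 were higher and 11 lower in ASO-L1, with DUSP6, a feedback phosphatase of ERK signalling, at 0.257 the lowest. In SO-L1, of 13 primed genes with enough UMIs, 2 were higher, VIM at 2.30 and ETV5 at 1.96, and 3 lower, FZD7 at 0.282, FAT3 at 0.435 and CRABP1 at 0.585.

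Relatives of the 7 genes by sequence had a median near that of all genes. Of 26 family relatives with at least 100 UMIs in the ASO-L1 comparison of classes, 10 were called higher and 5 lower, with a median log2 ratio of 0.12 against 0.14 over all genes. The highest were POU3F2, a neural POU factor gene, at 4.53 and SOX9, a progenitor gene of many epithelia and of cartilage, at 4.05. The lowest were POU2F1, a widely expressed POU factor gene, at 0.452 and the zinc-finger gene YY2, at 0.554. In SO-L1 5 of 25 were higher and 1 lower, led by PRDM1, a germ-cell and lymphocyte regulator, at 6.45. Marker lists of other cell types were read in the same comparison, where 27.1% of all genes were called higher and 12.8% lower in ASO-L1, and 19.9% and 6.32% in SO-L1. In low-mitochondrial ASO-L1 cells 8 of 11 trophectoderm and amnion genes were called higher and 0 lower, and in SO-L1 5 of 9 and 0. Of 12 mesendoderm genes 6 were higher and 2 lower in ASO-L1, and of 6 in SO-L1 2 and 1. Of 10 neuroectoderm genes 4 were higher and 2 lower in ASO-L1, and of 6 in SO-L1 1 and 1, near the shares over all genes. Of 4 fibroblast genes 3 were higher and 1 lower in ASO-L1, and 3 and 0 in SO-L1. Their part in the members' ratios was not tested. SOX17 and SOX1, which define endoderm and neural plate, had 30 and 15 UMIs in all ASO-L1 cells. Each had the fewest UMIs of its list there. In the same cells the mesendoderm gene GATA6 had 1045, and the neuroectoderm genes NES and TUBB3 had 65307 and 203086.

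Levels were also read along the mitochondrial share itself. In ASO-L1, POU5F1 was at 611 CPM in cells below 0.25%, at 557 from 0.25% to 0.5% and at 592 from 0.5% to 1%. Above that it was at 718 from 1% to 2%, at 763 from 2% to 3%, at 875 from 3% to 5% and at 1037 from 5% to 7.5%. SOX2 was at 116, 112, 106, 131, 190, 213 and 283 in the same bins. Both had their lowest level between 0.25% and 1%, and from 1% to 5% they lay between the levels below and above. PRDM14 stood at 43.7, 43.2, 27.3, 41.5, 66.0, 101.5 and 120.4, so it lay between the outer levels from 2% to 5%, but not from 1% to 2%. Those bins held 219 cells from 1% to 2%, 144 from 2% to 3% and 479 from 3% to 5%. ZFP42 was at 118 below 0.25%, at 134 from 0.5% to 1% and at 89.65 from 5% to 7.5%. In SO-L1, POU5F1 ran only from 895 to 1078 over all the bins, and SOX2 from 205 to 384. The SO-L1 bin from 2% to 3% held 59 cells with a median of 3432 UMIs, so its values are imprecise.

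**Figure D2:**
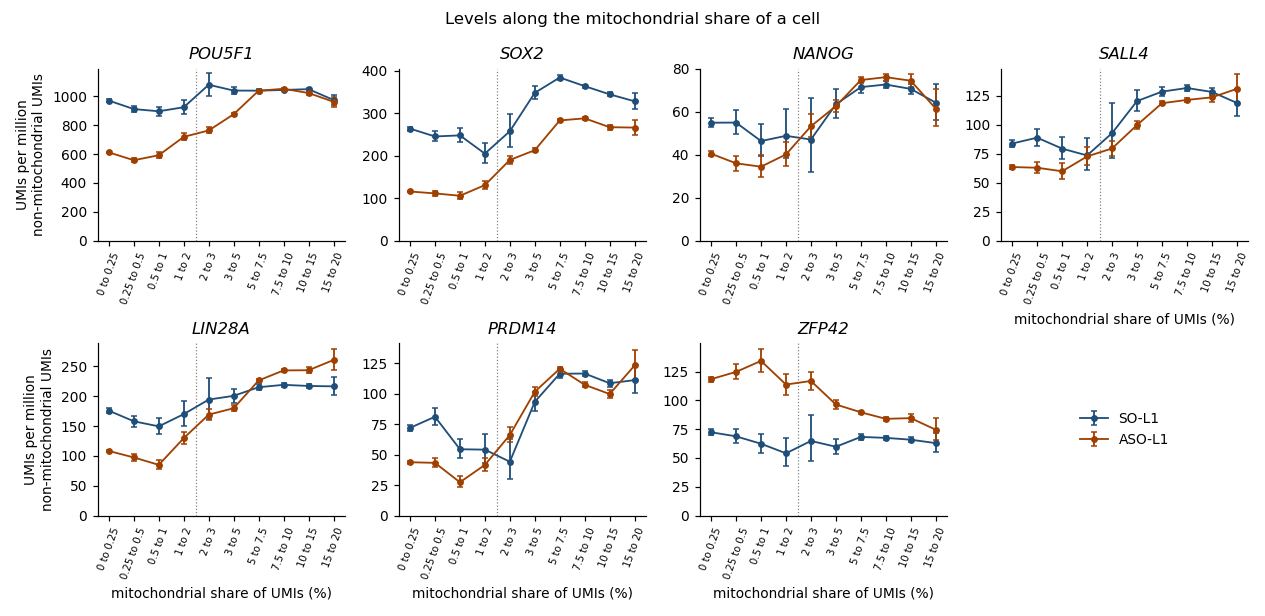
Level (CPM, axes from 0) of each gene in bins of the mitochondrial share of a cell's UMIs, for SO-L1 and ASO-L1; whiskers are exact 95% Poisson intervals for counting error and the dotted line marks the 2% class limit. In ASO-L1, POU5F1 lies at 611, 557 and 592 in the bins below 1% and at 1037 from 5% to 7.5%, while in SO-L1 it stays between 895 and 1078.

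Depth is part of this picture. Low-mitochondrial SO-L1 cells under 8000 non-mitochondrial UMIs, 303 cells, had POU5F1 at 349 CPM, while those from 20000 to 40000 UMIs had 968. In ASO-L1 the corresponding values were 410 in 296 cells and 609. Cells of 8000 UMIs or more were at 601 to 674 in the bins up to 80000 UMIs in low-mitochondrial ASO-L1 cells, and at 1007 to 1146 in the other ASO-L1 cells. Above 80000 UMIs the classes were at 520 and 916, and below 8000 at 410 and 684. POU5F1 was thus lower in the low-mitochondrial class of ASO-L1 in each depth bin.

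To compare cells with each other, every cell of 8000 or more non-mitochondrial UMIs was thinned to 8000 at random, which kept 5899 SO-L1 and 8555 ASO-L1 cells and left out 654 and 529. POU5F1 was then found in 99.8% of SO-L1 cells and 99.5% of ASO-L1 cells at 2% mitochondrial UMIs or more, with a median of 8 UMIs in both. Among low-mitochondrial cells it was found in 98.1% in SO-L1, with a median of 7, and in 92.2% in ASO-L1, with a median of 4. The ASO-L1 cells without a POU5F1 UMI numbered 175 (7.83%), against 0.747% if the same UMIs were spread evenly. The lower sum thus came with a wider spread between cells. On all UMIs, the middle 50% of low-mitochondrial ASO-L1 cells lay from 293 to 861 CPM and that of the other ASO-L1 cells from 864 to 1209, so these ranges did not overlap, although the full distributions did.

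SOX2 was missing at 8000 UMIs from 54.0% of low-mitochondrial ASO-L1 cells, where 37.6% would be missing with an even spread. In the other sets SOX2 was missing from 25.6% of low-mitochondrial SO-L1 cells, 18.1% of the remaining ASO-L1 cells and 9.64% of the remaining SO-L1 cells. LIN28A was missing from 54.6%, 33.4%, 19.3% and 20.1% in the same order. PRDM14 was missing from 78.7%, 67.6%, 46.2% and 45.1%, and NANOG from 75.4%, 68.4%, 55.6% and 58.1%. For these 4 genes the low-mitochondrial ASO-L1 cells had the largest share without a UMI. SALL4 was missing from 63.4%, 53.8%, 42.5% and 38.7%. ZFP42 was missing from 43.7%, 62.0%, 50.5% and 59.9%, so its smallest share missing was in low-mitochondrial ASO-L1 cells and its largest in low-mitochondrial SO-L1 cells. Without thinning, where deeper cells show more, 90.9% of SO-L1 cells and 89.8% of ASO-L1 cells had SOX2. No cell class in these tables is known to lack these genes, so a share set by free RNA could not be measured in one. Barcodes under 1000 genes, with medians of 743 and 636 UMIs in SO-L1 and ASO-L1, had a POU5F1 UMI in 49.1% and 49.8%.

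**Figure D3:**
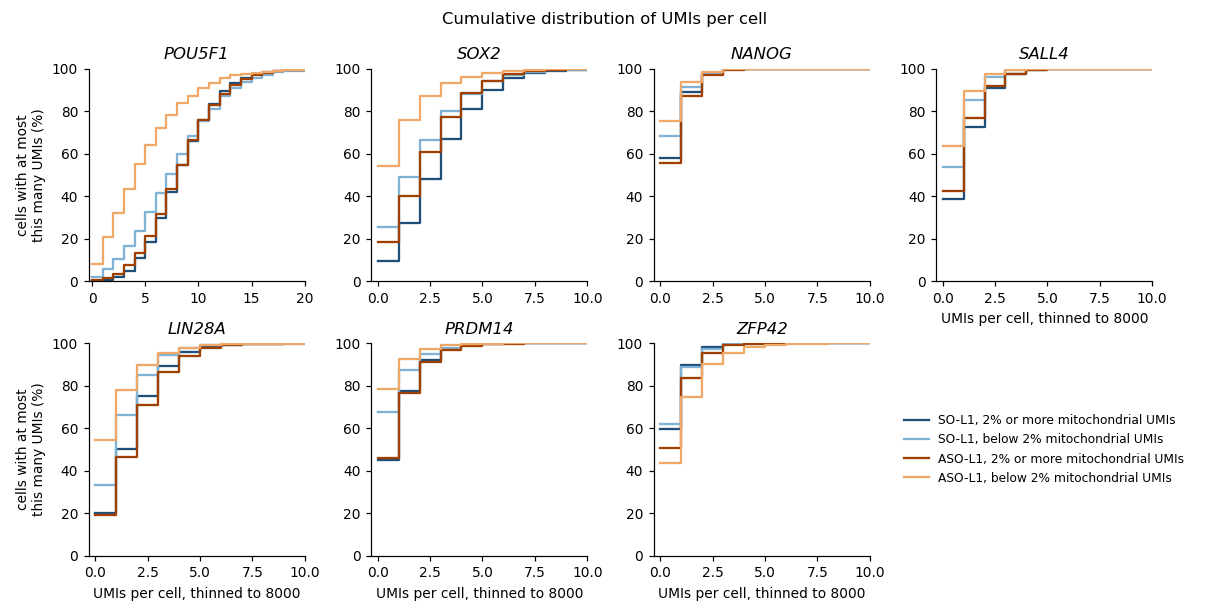
Cumulative share of cells (%) against the number of UMIs of each gene per cell after thinning to 8000 non-mitochondrial UMIs, for the 4 sets of cells; a curve further to the left means fewer UMIs per cell. At 0 UMIs of SOX2 the low-mitochondrial ASO-L1 curve starts at 54.0% and the SO-L1 curve for 2% or more at 9.64%.

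The spread beyond counting error differed among the 7 genes. It is given as excess squared coefficient of variation, the variance of UMIs per cell minus the mean, divided by the squared mean, which is 0 for an even spread. PRDM14 had the largest in each of the 4 sets: 1.45 in low-mitochondrial SO-L1 cells, 2.49 in low-mitochondrial ASO-L1 cells, and 0.280 and 0.417 in the remaining SO-L1 and ASO-L1 cells. Among genes with a mean of at least 0.3 UMI, 93.0%, 94.7%, 82.8% and 83.8% had a smaller value. PRDM14 thus varied from cell to cell more than most of these genes, also among cells at 2% mitochondrial UMIs or more. SOX2 followed, at 1.30 in low-mitochondrial ASO-L1 cells (86.5% of genes lower) and 0.126 in the remaining SO-L1 cells (56.9%). POU5F1 had the smallest or next to smallest value of the 7 in each set, at 0.0438 in the remaining SO-L1 cells (24.5% of genes lower) and 0.455 in low-mitochondrial ASO-L1 cells (47.8%).

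POU5F1, SOX2 and NANOG were found together in 34.6% of SO-L1 cells (exact 95% interval 33.4% to 35.8%) and in 31.3% of ASO-L1 cells (30.3% to 32.3%) at 8000 UMIs. In SO-L1 the product of the single shares was 33.5%, and in ASO-L1 27.8%. The shares depend on depth, and were 60.8% and 55.1% at 16000 UMIs. By class, the trio was seen in 37.8% of SO-L1 cells and 37.5% of ASO-L1 cells at 2% mitochondrial UMIs or more. Among low-mitochondrial cells it was seen in 25.4% for SO-L1 but 13.8% (12.4% to 15.3%) for ASO-L1, against products of 23.1% and 10.4%. In that last set 103 of 2235 cells (4.61%) showed none of the trio, against a product of 3.19%. In low-mitochondrial SO-L1 cells 10 showed none, and in the remaining cells 0 of 4345 SO-L1 cells and 10 ASO-L1 cells. The count of 0 allows a share of up to 0.0849% at the upper 95% bound.

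All 7 genes were found together in 3.64% of SO-L1 cells and 4.42% of ASO-L1 cells, against products of 2.85% and 2.40%. The mean number found per cell was 4.68 for SO-L1 and 4.67 for ASO-L1 cells at 2% mitochondrial UMIs or more, 3.87 in low-mitochondrial SO-L1 cells and 3.22 in low-mitochondrial ASO-L1 cells. In the last set, cells with 0 or 1 of the genes made up 0.805% and 9.04%, above the 0.380% and 6.05% that the single shares give. Cells with 6 of them made up 5.28%, against 2.44%. Both ends of the distribution were thus fuller than the single shares give. In SO-L1 cells at 2% or more the distribution followed the single shares closely, with 33.5% against 34.1% at 5 genes.

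**Figure D4:**
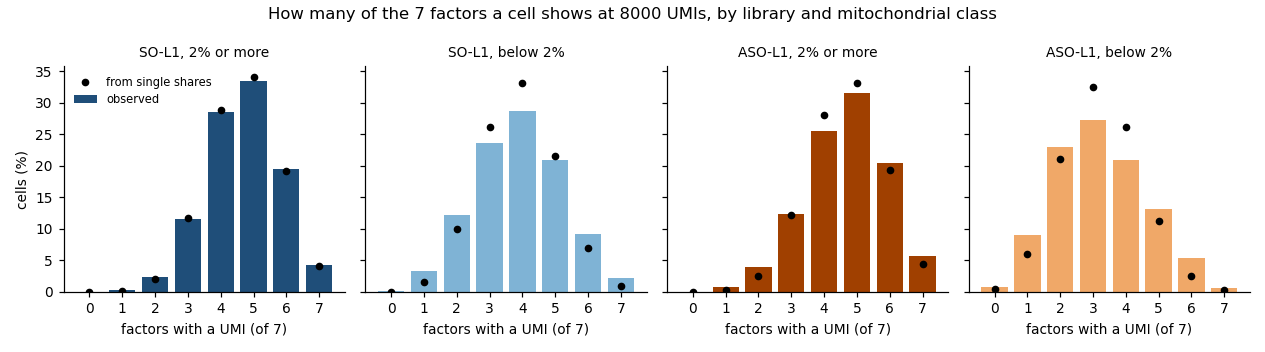
Share of cells (%) by how many of the 7 genes had a UMI at 8000 non-mitochondrial UMIs, in the 4 sets of cells; bars are the observed shares and black points those computed from each gene's own share as if the genes were found independently. In low-mitochondrial ASO-L1 cells the bar at 6 genes stands at 5.28% and its point at 2.44%.

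The pairs behind this were read within classes. In low-mitochondrial ASO-L1 cells NANOG and PRDM14 were found together in 7.47% of cells, 1.43 times the product of their shares. NANOG and LIN28A stood at 1.37 times, LIN28A and PRDM14 at 1.34, SOX2 and PRDM14 at 1.31, SOX2 and LIN28A at 1.26 and SOX2 and NANOG at 1.24. These 4 genes thus tended to be present in the same cells. POU5F1 was found in 92.2% of these cells, which leaves its pairs little room above the product. It stood at 1.04 times with LIN28A and 1.02 with SOX2. Pearson's r of log(1 + UMIs) across these cells was 0.361 for POU5F1 with LIN28A and 0.235 with SOX2. For NANOG with PRDM14 it was 0.162. LIN28A was found in 62.4% of the cells with NANOG and in 39.8% of those without. ZFP42 stood apart, at 0.892 times with PRDM14, 0.939 with LIN28A and 0.985 with SOX2. In SO-L1 cells at 2% or more all 21 pairs lay between 0.984 and 1.02 times the product. In low-mitochondrial SO-L1 cells NANOG with PRDM14, at 1.22, was the highest.

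Cells were also sorted by their POU5F1 UMIs at 8000. In low-mitochondrial ASO-L1 cells, the 719 with 0 to 2 POU5F1 UMIs had SOX2 at 76.0 CPM, the 218 with 9 to 11 had 196 and the 148 with 12 or more had 170. LIN28A was at 50.1, 188 and 247, NANOG at 19.99, 76.8 and 61.7 and PRDM14 at 19.6, 75.1 and 53.2. ZFP42 was at 142, 96.9 and 92.1, and SALL4 at 60.2, 74.5 and 71.8. So SOX2, LIN28A, NANOG and PRDM14 were higher in both groups with more POU5F1 than in the group with 0 to 2, and ZFP42 was lower, while SOX2, NANOG and PRDM14 were lower at 12 or more than at 9 to 11. TPRX1 stood at 37.2, 23.5 and 16.0 CPM in these 3 groups. In the 717 cells with 3 to 5 POU5F1 UMIs it stood at 39.7, and in the 433 with 6 to 8 at 39.8. TPRX1 was thus lower only at 9 POU5F1 UMIs or more. CER1 stood at 88.0, 107.8 and 65.9 in the same 3 groups, and at 144 and 133 in the groups between. The median depth of the 3 groups was 44081, 50860 and 41066 UMIs. Part of this was seen in other sets, read from 0 to 2 up to 12 or more POU5F1 UMIs. In ASO-L1 cells at 2% or more, SOX2 went from 194 to 312 CPM and LIN28A from 146 to 259. NANOG went from 45.0 to 85.2 there and PRDM14 from 65.9 to 116. In low-mitochondrial SO-L1 cells SOX2 went from 196 to 274, LIN28A from 100 to 199 and NANOG from 34.9 to 56.5. PRDM14 was at 67.5 and 65.1 there. In SO-L1 cells at 2% or more, SOX2 lay between 320 and 364 in all the POU5F1 groups, LIN28A between 206 and 222 and ZFP42 between 60.9 and 69.8. These sums share the cells and the depth with POU5F1 and carry no test.

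Across cells, the genes most like each member were ranked by the mean of Pearson's r over the 4 sets (1554, 4345, 2235 and 6320 thinned cells), among 9704 genes found in at least 5% of cells of every set. Cells of 1 set share a library and are not independent, so r is a description. For NANOG the 3 highest were TDGF1, a Nodal co-receptor, at a mean r of 0.127, UTF1, a chromatin factor of stem cells, at 0.125, and L1TD1, an RNA-binding protein gene derived from LINE1, at 0.123. For SOX2 they were MIR302CHG, the host of the miR-302 cluster, at 0.2685, TERF1 at 0.263 and the forkhead gene FOXP1 at 0.250. TERF1 was also first for SALL4, at 0.121, followed by the let-7 target gene IGF2BP3 at 0.115 and the PRC2 cofactor gene JARID2 at 0.115. TERF1 was first again for LIN28A, at 0.218, followed by UGP2 at 0.217 and SNHG14 at 0.204. PRDM14 was nearest to AASS, at 0.163, VCAN, at 0.158, and TRIM71, a partner of the LIN28 pathway, at 0.156. ZFP42 was nearest to the naive gene ALPG, at 0.143, the embryonic cyclin gene CCNA1, at 0.121, and NLRP7, an oocyte and embryo gene, at 0.1. POU5F1 was nearest to the housekeeping genes GAPDH, at 0.389, RPS2, at 0.354, and UQCRH, at 0.336. These values are weak. In SO-L1 cells at 2% or more the r of these pairs was between 0.0219 (NANOG with TDGF1) and 0.211 (POU5F1 with GAPDH), and in low-mitochondrial ASO-L1 cells between 0.129 (SALL4 with TERF1) and 0.501 (POU5F1 with UQCRH).

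TPRX1 is a PRD-like homeobox gene expressed at genome activation around the 8-cell stage, the state named in the series title. It had a UMI in 155 SO-L1 cells (2.37%) and 800 ASO-L1 cells (8.81%). At 10 or more TPRX1 UMIs there were 7 cells in SO-L1, all low-mitochondrial, and 144 in ASO-L1, of which 79.9% were low-mitochondrial. In ASO-L1 the 800 cells had 3 of the 7 genes called lower and 1 higher than the 8284 without, where 11.9% of 21454 genes were called lower and 13.2% higher. PRDM14 was at 53.3 CPM against 99.6, a ratio of 0.535 (0.514 to 0.556). SOX2 was at 0.627 and LIN28A at 0.655. ZFP42 was at 148 against 89.8, a ratio of 1.64 (1.60 to 1.69). So ZFP42 was higher and the 3 others lower in the cells carrying the 8-cell marker.

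The departures were larger in cells with more than 1 TPRX1 UMI. In the 144 ASO-L1 cells with 10 or more, a group added after the data were seen, 6 genes were called lower and 1 higher, where 26.8% of 21135 genes were called lower and 18.4% higher. PRDM14 was at 26.7 CPM against 99.6 (ratio 0.268, 0.237 to 0.303), and the median of these cells was 13.6, with 58.3% holding a UMI. SOX2 had a ratio of 0.456, LIN28A of 0.513, SALL4 of 0.542, POU5F1 of 0.571 and NANOG of 0.585. ZFP42 was at 206 against 89.8 (ratio 2.29, 2.19 to 2.40), and each of the 144 cells held a ZFP42 UMI. POU5F1 stayed present, with a UMI in 143 of the 144 cells. Since most of these cells are low-mitochondrial, the ratios were also taken within that class, with 115 cells against 2095. There only PRDM14 was called lower, at 16.8 against 48.4 (ratio 0.346, 0.285 to 0.417), and ZFP42 higher, at 224 against 101 (ratio 2.21, 2.09 to 2.33). In that class 33.3% of 17261 genes were called lower and 11.3% higher. NANOG was at 0.913 (0.802 to 1.04), POU5F1 at 0.720 and SOX2 at 0.761. Other groups within a class had more calls. In the 166 low-mitochondrial cells with 2 to 9 TPRX1 UMIs, 4 genes were called lower, where 29.8% of 17263 genes were called lower and 7.39% higher: PRDM14 at 0.330, LIN28A at 0.468, POU5F1 at 0.590 and SOX2 at 0.617, with ZFP42 called higher at 2.00. In the 29 cells at 2% or more with 10 or more TPRX1 UMIs, 4 were called lower, where 20% of 19797 genes were called lower and 13.3% higher: PRDM14 at 0.440, SOX2 at 0.552, SALL4 at 0.559 and NANOG at 0.578, with ZFP42 called higher at 1.90. PRDM14 and ZFP42 were the genes called in each of these 3 groups.

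Over all genes, 18.4% were called higher and 26.8% lower in those 144 cells. Among the 8-cell genes of the list, 11 of 11 measured were called higher, led by SLC34A2 at 108-fold and KLF17 at 85.4-fold. The cells were picked by TPRX1, itself an 8-cell gene, so that count was partly set by the choice. KLF17 is in both the 8-cell and the naive list. Of the 25 general network genes 2 were called higher and 16 lower, with TERF1 at 0.156 and DNMT3B at 0.164 the lowest. Of 20 naive genes 12 were higher and 5 lower, with DPPA3, a maternal-effect and naive gene, at 22.5 beside KLF17, and the FGF ligand gene FGF4 at 0.189 the lowest. Of 18 let-7 pathway genes 1 was higher and 10 lower, with IGF2BP3 at 0.178.

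In SO-L1 the 155 cells with any TPRX1 UMI had none of the 7 genes called. Of 19451 genes 7.63% were called higher there and 1.49% lower. Of the 155 cells, 130 held 1 TPRX1 UMI only. SO-L1 barcodes under 1000 genes had TPRX1 at 9.40 CPM, against 1.68 in kept SO-L1 cells and 11.4 in kept ASO-L1 cells. Where single TPRX1 UMIs of SO-L1 come from was not tested. The 7 cells with 10 or more had 4 genes called lower and 2 higher, where 12.4% of 19347 genes were called lower and 10.2% higher. PRDM14 had 4 UMIs in all (ratio 0.143, 0.0391 to 0.367) and SOX2 had 14 (0.154, 0.0840 to 0.258). ZFP42 had 46 UMIs, at 171 CPM against 67.4 (ratio 2.54, 1.86 to 3.39). PRDM14, SOX2 and ZFP42 thus went the way they did in ASO-L1. POU5F1, at 0.658, and SALL4, at 0.531, were also lower. NANOG, with 19 UMIs, was at 1.05 (0.631 to 1.64), against 0.585 in ASO-L1. LIN28A had 161 UMIs (ratio 2.91, 2.47 to 3.39), spread over the cells as 2, 8, 9, 15, 15, 17 and 95. Without the cell with 95 the ratio was 1.71 (1.33 to 2.18). A single cell thus held most of the LIN28A UMIs, and the other 6 cells still had a higher sum than cells without TPRX1.

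CER1 encodes a secreted Nodal and BMP antagonist of the anterior mesendoderm. It had a UMI in 567 SO-L1 cells (8.65%) and 3150 ASO-L1 cells (34.7%). Barcodes under 1000 genes in SO-L1, most of which carry ASO-L1 barcodes, had CER1 at 60.3 CPM. Kept SO-L1 cells had 4.37 and kept ASO-L1 cells 61.9. The part of free RNA, or of RNA from ASO-L1, in single CER1 UMIs of SO-L1 was not tested. None of the 7 genes was called in cells with any CER1 UMI in either library. In SO-L1 2.68% of genes were called higher and 1.92% lower, and in ASO-L1 8.62% and 14.8%. The 705 ASO-L1 cells with 10 or more CER1 UMIs had 3 genes called lower and none higher, where 26.5% of 20364 genes were called lower and 13.8% higher. SOX2 was at 111 CPM against 272 (ratio 0.409, 0.398 to 0.420), LIN28A at 125 against 223 (ratio 0.562, 0.547 to 0.577) and NANOG at 46.6 against 70.9 (ratio 0.658, 0.630 to 0.687). POU5F1 was at 0.718, SALL4 at 0.713, PRDM14 at 0.781 and ZFP42 at 1.11. Within the low-mitochondrial class, 302 cells against 1418, SOX2 was at 0.414 (0.390 to 0.440) and LIN28A at 0.544 (0.514 to 0.576), and no other of the 7 was called. In that class 24.1% of 16477 genes were called lower and 4.38% higher. PRDM14 was at 1.12 (1.03 to 1.21) and ZFP42 at 0.855.

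The members therefore had different profiles in the TPRX1 and CER1 cells of ASO-L1. PRDM14 was the lowest ratio in TPRX1 cells and near 1 in low-mitochondrial CER1 cells. ZFP42 was 2.21 in low-mitochondrial TPRX1 cells and 0.855 in CER1 cells, and SOX2 was 0.761 and 0.414. Of the ASO-L1 cells 9 had 10 or more UMIs of both genes. The difference between the marker groups was not tested, as both come from 1 library. TBXT, which marks the primitive streak, had 91 UMIs in all ASO-L1 cells, and EOMES 69. Other mesendoderm genes had more there, with MIXL1 at 9518 UMIs in 40.6% of cells, FGF8 at 6673, WNT3 at 2925 and GATA6 at 1045. Of 25 general network genes 1 was called higher and 15 lower in the 705 CER1 cells. Over all genes of that comparison 13.8% were called higher and 26.5% lower. DNMT3B stood at 0.169 and TERF1 at 0.172. SALL1, a relative of SALL4, at 1.65 and the ligand gene NODAL, at 1.5 and not called, had the highest ratios.

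In SO-L1 only 10 cells had 10 or more CER1 UMIs. In them 5 of the 7 genes were called lower, where 4.74% of 19158 genes were called lower and 6.83% higher, with NANOG at 0.410 (13 UMIs, 0.218 to 0.701) and POU5F1 at 0.579 (281 UMIs, 0.513 to 0.651). LIN28A was at 0.765, with UMIs of 10 cells ranging from 0 to 603 CPM, and ZFP42 at 1.23. SOX2 was at 0.601 as a sum, but single cells ran from 0 to 1536 CPM. These 10 cells thus had low POU5F1 and NANOG together with very unequal SOX2.

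PAX6 encodes a paired-box factor of early neural cells. It had a UMI in 324 SO-L1 cells (4.94%) and 766 ASO-L1 cells (8.43%), and these were rarely low-mitochondrial, 6.79% and 18.1%. None of the 7 genes was called in them in either library. In SO-L1 2.35% of genes were called higher and 8.34% lower, and in ASO-L1 1.08% and 7.74%. In the 131 SO-L1 cells with 2 or more PAX6 UMIs, where 3.92% of genes were called higher and 10.1% lower, SOX2 was at 435 CPM against 333 (ratio 1.30, 1.26 to 1.36) and NANOG at 1.22 (1.12 to 1.34). In the 337 ASO-L1 cells, where 1.66% of genes were called higher and 13% lower, SOX2 was at 279 against 234 (ratio 1.19, 1.16 to 1.22), NANOG at 1.18 (1.12 to 1.24) and SALL4 at 1.12. ZFP42 was at 0.815 in SO-L1 and 0.802 in ASO-L1, and POU5F1 at 1.02 and 1.01. Over both classes, cells with 2 or more PAX6 UMIs thus had all 7 genes within 1.5-fold of other cells, with SOX2 and NANOG above 1 and ZFP42 below. Within classes this held at 2% or more, where SOX2 was at 1.22 and NANOG at 1.14 in 128 SO-L1 cells and at 1.13 and 1.16 in 288 ASO-L1 cells. In the 49 low-mitochondrial ASO-L1 cells SOX2 was at 0.887, NANOG at 0.734 and ZFP42 at 0.762, and the ratios of the 7 genes ran from 0.734 to 1.0. Only 3 such cells were low-mitochondrial in SO-L1, with NANOG past the limit from 10 UMIs (ratio 2.21, 1.06 to 4.07). In the 7 SO-L1 cells with 10 or more, NANOG was at 2.03 (1.48 to 2.71) from 46 UMIs. Among naive genes, in cells with 2 or more PAX6 UMIs, 13 of 20 called lower and 1 higher in SO-L1 and 12 and 0 in ASO-L1.

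**Figure D5:**
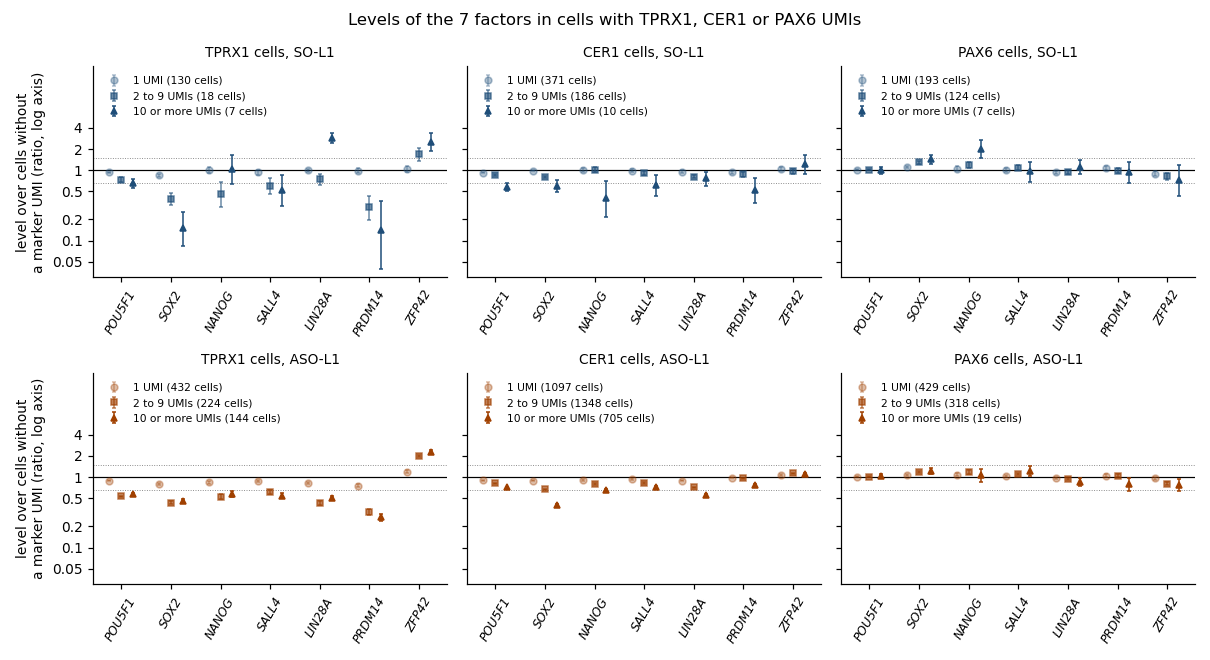
Ratio of each gene's level in cells with 1, 2 to 9 or 10 or more UMIs of TPRX1, CER1 or PAX6 to its level in cells of the same library with none (log axis; black line at 1, dotted lines at 1.5-fold; whiskers are exact 95% binomial intervals for counting error), with the number of cells in each legend. In ASO-L1 TPRX1 cells ZFP42 lies at 2.29 and PRDM14 lies at 0.268, while all PAX6 ratios of ASO-L1 stay between the dotted lines.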

How the data were processed

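The deposited files give raw UMI counts for each gene in each barcode of 2 libraries (10x 3' v3). Per the submitters' processing notes, the authors used Cell Ranger 7.1.0 and hg38. Intron and strand settings are unknown here. Kept SO-L1 cells held 253664486 non-mitochondrial UMIs and kept ASO-L1 cells 470175180. Counts were summed over cells and divided by the non-mitochondrial total. A sum of 0 was set to 3 UMIs for a ratio. Ratios carry exact conditional binomial and shares exact Clopper-Pearson 95% intervals (scipy 1.17.1, numpy 2.4.6). Thinning was without replacement, with seed 11. The calling and thinning code was tested on simulated counts. Groups came from the sample labels. No doublet caller was run, and leaving out the deepest 5% of cells per library was tried instead. No clusters were made. The members and lists were chosen with earlier results of these data known. The named genes are the 7 members, the 3 marker genes, the 2 highest and 2 lowest ratios of each list among genes with 100 UMIs or more, and the 3 genes most alike per member, of which the text gives a choice. CRABP1, SOX17, TBXT, SOX1, DPPA5, CD24, LUM, DCN, TCF19 and SOX2-OT were named outside that rule, after their values were seen. Further list members were named beside SOX17, TBXT, SOX1, CD24, LUM and DCN, also after their values were seen. Of 181 list entries 1 had no row in the tables.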

Additional observations from a re-analysis of the deposited data

Results flagged for a closer look

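LIN28A stood on opposite sides of 1 in the TPRX1 cells of the libraries. At 10 or more TPRX1 UMIs its ratio to cells without TPRX1 was 2.91 in the 7 cells of SO-L1 and 0.513 in the 144 cells of ASO-L1. Among low-mitochondrial cells with 2 or more TPRX1 UMIs it was 1.70 in the 20 cells of SO-L1 and 0.575 in the 281 cells of ASO-L1. The difference between libraries was not tested, as each is 1 library, and 1 SO-L1 cell held 95 of the 161 LIN28A UMIs at 10 or more.

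In barcodes under 1000 genes, which enter no comparison of cells, POU5F1 had a ratio of ASO-L1 to SO-L1 of 1.08 (95% interval 1.02 to 1.15), while in kept cells it was 0.901. The intervals of the 6 other genes in those barcodes included 1. Of the 6045 SO-L1 barcodes in this ratio, 5032 carried the barcode of a kept ASO-L1 cell. POU5F1 was at 925 CPM in the 6045, at 920 in kept ASO-L1 cells and at 1022 in kept SO-L1 cells. How much of their RNA came from ASO-L1 was not tested, so this ratio may not contrast the libraries.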

How the results depend on the processing

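Counts below are of members past the limit. For most of these settings no share over all genes is given. The counts thus show how calls moved with the setting, and not whether the members stand out from other genes. For ASO-L1 over SO-L1 the count of 0 became 5 in low-mitochondrial cells, 5 there without barcodes kept in both libraries and 2 there without TPRX1, CER1 or PAX6 UMIs. Between classes of SO-L1 the count of 2 became 0 with mitochondrial genes in the total, 0 at 2-fold and 1 with the class limit at 5%, and in ASO-L1 the count of 6 became 3 at 2-fold. For TPRX1 cells of SO-L1 the count of 0 became 5 at 2 or more UMIs, 6 at 10 or more, 3 for a marker found after thinning and 1 in low-mitochondrial cells. In ASO-L1 the count of 4 became 0 at 2-fold, 7 at 2 or more UMIs, 7 at 10 or more and 0 in cells at 2% or more. For CER1 cells the count of 0 became 5 for SO-L1 cells with 10 or more UMIs, while the ASO-L1 count of 0 became 2 at 2 or more, 3 at 10 or more, 1 after thinning and 2 in low-mitochondrial cells. For PAX6 cells of SO-L1 the count of 0 became 1 at 10 or more UMIs and 1 in low-mitochondrial cells. The share of cells with POU5F1, SOX2 and NANOG in SO-L1 went from 34.6% to 15.6% at 4000 UMIs, 60.8% at 16000, 76.3% without thinning, 25.4% in low-mitochondrial cells and 37.8% in the others. In ASO-L1 it went from 31.3% to 12.7%, 55.1%, 76.9%, 13.8% and 37.5%, and to 29.96% with another random seed. Of 672 alternative member ratios, 352 stayed inside the counting interval of the main ratio and 320 moved out of it. Of 116 alternatives of the 12 called member ratios all 116 kept their direction. Most of these alternatives reuse the same cells, so a shared direction says little. The 12 are those called in the main settings. Calls between libraries in low-mitochondrial cells, and calls at 10 or more marker UMIs, are not among them. Settings with 10 or more marker UMIs, without marker UMIs, or without barcodes kept in both libraries were chosen after seeing the data. The cause of these shifts was not tested. No replicate could be left out and no paired analysis was possible because each group is 1 library. Depth limits the shares per cell, and marker groups of 7 to 19 cells rest on few UMIs.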
